A study of Mus musculus with 6 samples.

Results

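The genes described here are 48 genes of DNA replication and S phase, taken by symbol from the 15845 genes of the count table. They were grouped by role into licensing and helicase loading (17 genes), polymerases (9), the sliding clamp with its loader and the lagging-strand factors (11), nucleotide supply (4), and S-phase entry and chromatin (7). RNA was sequenced from LSK cells, the lineage-negative, Sca1-positive and c-Kit-positive bone marrow fraction that holds the blood stem cells and early multipotent progenitors. The TP-3654 group was C57BL/6 mice of genotype Mx1Cre; Jak2VF/VF given TP-3654, which the series title calls a Pim1 inhibitor, at 150 mg/kg/day for 6 weeks. The vehicle group was mice of the same strain and genotype given PBS. Both groups thus carried the homozygous Jak2 mutant alleles and the Mx1Cre transgene, whose Cre recombinase is expressed from a promoter that answers to interferon, and the effect of the drug without the mutant allele is not analysed here. Each group held 3 libraries that the design text calls biological replicates, so every p-value rests on 3 samples per group.

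Replication origins are licensed in G1, when the origin recognition complex, Cdc6 and Cdt1 load the MCM2-7 helicase onto DNA. In S phase the helicase is activated by Cdc45 and the GINS complex, polymerase alpha with primase starts each strand, and polymerases delta and epsilon extend it. The clamp PCNA, loaded by the RFC complex, tethers polymerases and recruits the flap nuclease and the ligase that join lagging-strand fragments. Many of these genes are textbook targets of E2F factors, which cyclin E with its kinase releases from the retinoblastoma protein before S phase. Genes of mitosis are better known for the CHR element of the late cell cycle. In bulk samples, fewer cells in S phase and less RNA per cell cannot be told apart.

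Promoter windows were read from RefSeq tables of GRCm38.p6, 250 bases before to 50 after each start, and 40 of the 48 genes had a window. Some genes had several, and such a gene counted once, as matched if any of its windows matched. The E2F letters searched on both strands were TTTCCCGC, TTTGGCGC, TTTGCCGC and TTTCGCGC, which can overlap one another when read on opposite strands. A match was found for 16 of the 40 genes (40%), against 704 of all 27025 genes with a window (2.6%). In a list of further replication genes it was found for 17 of 57 (29.8%), and in a mitosis list for 5 of 43 (11.6%). By role it was found for 8 of 13 licensing genes, 4 of 7 polymerase genes, 2 of 10 clamp genes and 0 of 4 nucleotide supply genes. For S-phase entry and chromatin it was 2 of 6 genes. The licensing genes with a match were Mcm3, Mcm5, Mcm6, Mcm7, Orc1, Cdc6, Cdt1 and Gins3, and the others were Pola1, Pold1, Pold3, Pole2, Rfc3, Lig1, Uhrf1 and Msh6. The CHR letters TTTGAA were found for 5 of the 40 genes (12.5%) and 20.2% of all genes with a window. They were found for 30 of 43 genes (69.8%) of the mitosis list and 14 of 57 further replication genes (24.6%). The CCAAT letters were found for 25 of the 40 genes (62.5%), against 41.1% of all genes with a window. In the mitosis list they were found for 30 of 43 genes (69.8%), and in the further replication genes for 30 of 57 (52.6%). These are letter matches, not measured binding. The upstream stretches of 2 helicase genes show the pattern, since their E2F matches lie before the start and outside every annotated exon. The Mcm5 stretch is chr8:75109259-75109467 (plus strand, 250 to 42 bases before the start) and the Mcm6 stretch is chr1:128359706-128359955 (minus strand, 250 to 1 bases before the start). Capitals mark E2F and CCAAT letters or their reverse complements.
Mcm5: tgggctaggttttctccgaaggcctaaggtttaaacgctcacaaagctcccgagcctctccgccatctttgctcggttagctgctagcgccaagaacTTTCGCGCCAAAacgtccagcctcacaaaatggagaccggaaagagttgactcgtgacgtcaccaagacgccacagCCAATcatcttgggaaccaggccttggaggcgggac
Mcm6: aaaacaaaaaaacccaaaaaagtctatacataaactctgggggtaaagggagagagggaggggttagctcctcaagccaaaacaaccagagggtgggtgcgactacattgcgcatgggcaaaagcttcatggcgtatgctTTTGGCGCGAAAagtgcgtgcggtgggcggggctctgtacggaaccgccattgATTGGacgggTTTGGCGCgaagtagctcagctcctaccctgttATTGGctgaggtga
The Mcm5 stretch holds 2 overlapping E2F matches in its capital run and 1 CCAAT match. The Mcm6 stretch holds 3 E2F matches, 2 of them overlapping, and 2 CCAAT matches.

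Library totals ran from 20582057 to 25315596 counts, and the 48 genes had 351 to 20821 counts in each library. The 48 genes together took 0.838% to 1.03% of the counts. The sort marker Kit stood at 436, 492 and 581 CPM (counts scaled by library size with TMM factors) in the TP-3654 libraries, against 365, 377 and 375 CPM in the vehicle libraries, and Ly6a, which encodes Sca1, was at 60.5, 60.5 and 68.3 CPM against 40.0, 46.7 and 69.2 CPM. A list of granulocyte-monocyte progenitor genes summed to 5066 to 11109 CPM with TP-3654 and 14876 to 18052 CPM with vehicle, and a stem cell list to 642 to 726 CPM with TP-3654 and 377 to 462 CPM with vehicle. Erythroid genes summed to 1283 to 2863 CPM with TP-3654 and 1356 to 2704 CPM with vehicle. The B cell list summed to 90.1 to 175 CPM with TP-3654 and 87.4 to 153 CPM with vehicle, mostly Cd74 and Cd79b, while Ms4a1 had 0 to 1 counts in each library. The T and NK cell list summed to 158 to 239 CPM with TP-3654 and 238 to 285 CPM with vehicle, mostly Nkg7 and Lck, while Cd3e had 0 to 1 counts in each library. The mature neutrophil and monocyte list summed to 89.7 to 161 CPM with TP-3654 and 113 to 373 CPM with vehicle. The megakaryocyte list summed to 585 to 599 CPM with TP-3654 and 517 to 556 CPM with vehicle, mostly Itga2b and Selp. Of its 9 genes tested, 3 had a log2 fold change above 0 and 6 below, with a median of -0.435. The part of these shifts in cell markers in the values of the replication genes was not tested.

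Per kilobase of annotated exon, the replication genes kept nearly the same order in both groups. Pcna, the sliding clamp, was highest at 263 ± 61.6 CPM per kb with TP-3654 and 211 ± 15.6 CPM per kb with vehicle (SD, n = 3 each). The helicase subunits Mcm3, Mcm6, Mcm7, Mcm5 and Mcm2 followed (with Mcm5 above Mcm7 in vehicle), between 143 and 203 CPM per kb with TP-3654 and between 139 and 191 CPM per kb with vehicle. Rrm1, the large subunit of ribonucleotide reductase, came next at 153, 125 and 118 CPM per kb with TP-3654 and 126, 148 and 135 CPM per kb with vehicle. Neighbours at this end of the order overlapped within 1 SD in both groups. At the bottom lay Orc1, a subunit of the origin recognition complex (9.45 ± 1.46 CPM per kb with TP-3654 and 8.96 ± 1.53 CPM per kb with vehicle), and Ccne2, a cyclin E (9.50 ± 0.395 and 8.64 ± 2.22 CPM per kb), which did not differ beyond their spread. The ranks of 35 of the 48 genes differed by at most 2 places between the groups, and the largest difference was 6 places.

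**Figure D1:**
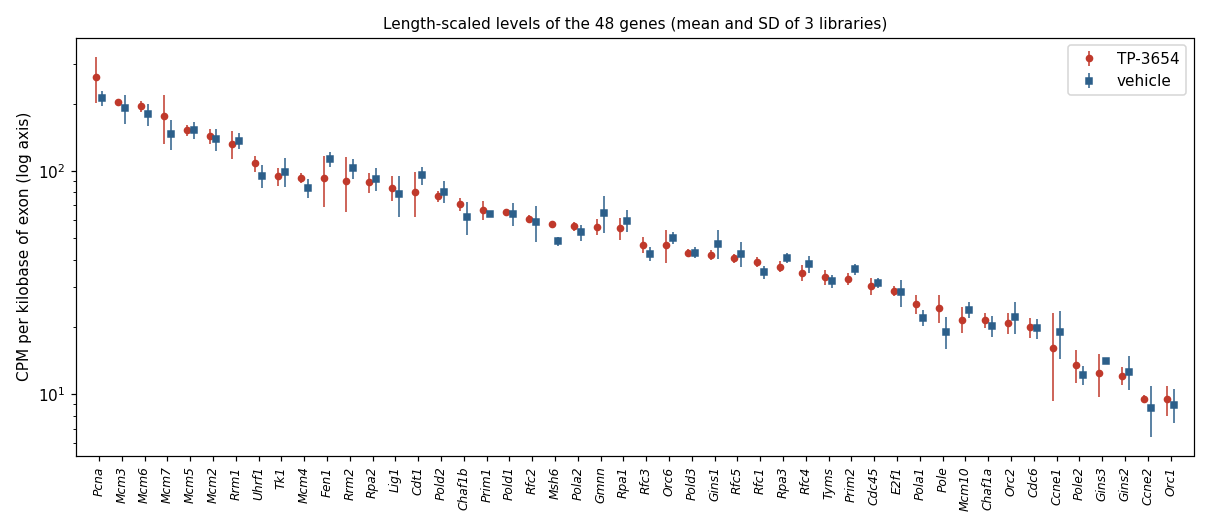
Level of each of the 48 genes in CPM per kb of exon on a log axis, ordered by the TP-3654 mean, with points for the mean of 3 libraries and bars for the SD (TP-3654 left of vehicle). Pcna (263 and 211 CPM per kb) and helicase subunits lie at the top and Ccne2 and Orc1 at the bottom in both groups.

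Per kilobase of exon, subunits of one complex were not at one level, and their spread was alike in both groups. These gaps depend on the exon length used, which was the union over each gene's coding transcripts. The 6 helicase subunits averaged 163, 150 and 168 CPM per kb in the TP-3654 libraries and 129, 159 and 157 CPM per kb in the vehicle libraries, with Mcm3 2.17-fold above Mcm4 with TP-3654 and 2.27-fold with vehicle. In the origin recognition complex Orc6 stood 4.91-fold above Orc1 with TP-3654 and 5.58-fold with vehicle. Among GINS subunits, which join the helicase, Gins1 stood 3.50-fold above Gins2 per kb with TP-3654 and 3.74-fold with vehicle. That gap came from the lengths, 1087 bases for Gins1 and 3900 for Gins2. Before length scaling, Gins1 and Gins2 were at 45.8 and 47.0 CPM with TP-3654 and 51.2 and 49.1 CPM with vehicle. Of the Gins2 exon bases, 70.7% lie in exons of Gse1 on the other strand. In polymerase alpha-primase the primase subunit Prim1 stood 2.63-fold above the catalytic subunit Pola1 per kb with TP-3654 and 2.91-fold with vehicle. Before length scaling Prim1 was the lower, at 106 CPM against 135 CPM with TP-3654 and 102 CPM against 118 CPM with vehicle. The 2 polymerase epsilon subunits measured averaged 18.9 ± 2.91 CPM per kb with TP-3654 and 15.6 ± 1.84 CPM per kb with vehicle. The 3 polymerase delta subunits averaged 63.3, 61.5 and 60.3 CPM per kb in the TP-3654 libraries and 56.1, 63.0 and 68.7 CPM per kb in the vehicle libraries. Neither polymerase differed between the groups beyond the overlap of its libraries.

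Across the comparison of TP-3654 with vehicle, 0 of the 48 genes passed an adjusted p of 0.05 in edgeR, where 0 of 13149 genes tested (0%) passed. At an unadjusted p under 0.05, 2 of the 48 were found, both higher with TP-3654 (Pole and Msh6), which is 4.17% against 17.1% of all genes tested (10.2% higher and 6.84% lower). The CPM of the groups did not overlap for 1 of the 48 (Msh6), which is 2.08% against 25.9% of all genes tested (14.3% higher and 11.6% lower). DESeq2 called 0 of the 48 and 4.92% of its genes with an adjusted p, and the authors' deposited table called 0 of the 48 and 5.32% of its genes. All 48 had passed the low-count filter. Log2 fold changes of TP-3654 over vehicle lay above 0 for 25 genes and below 0 for 23, with a median of 0.02, against 0.01 over all genes tested. The median size of the log2 fold change was 0.12 for the 48 genes, 0.21 for all genes tested and 0.16 for the 7937 genes whose mean CPM lay in the same range.

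The intervals show how much change these libraries could have missed. The 95% interval of the log2 fold change included 0 for 46 of the 48 genes, lay within 1 log2 unit of 0 for 47 and within 0.5 for 37. The lowest bound was -1.06, for Ccne1, and the highest 0.70, for Pole. The median half-width was 0.29. Replicates of the 48 genes varied by a median coefficient of variation of 8.24% with TP-3654 and 10.5% with vehicle, against 10.2% and 9.56% in genes of the same CPM range.

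**Figure D2:**
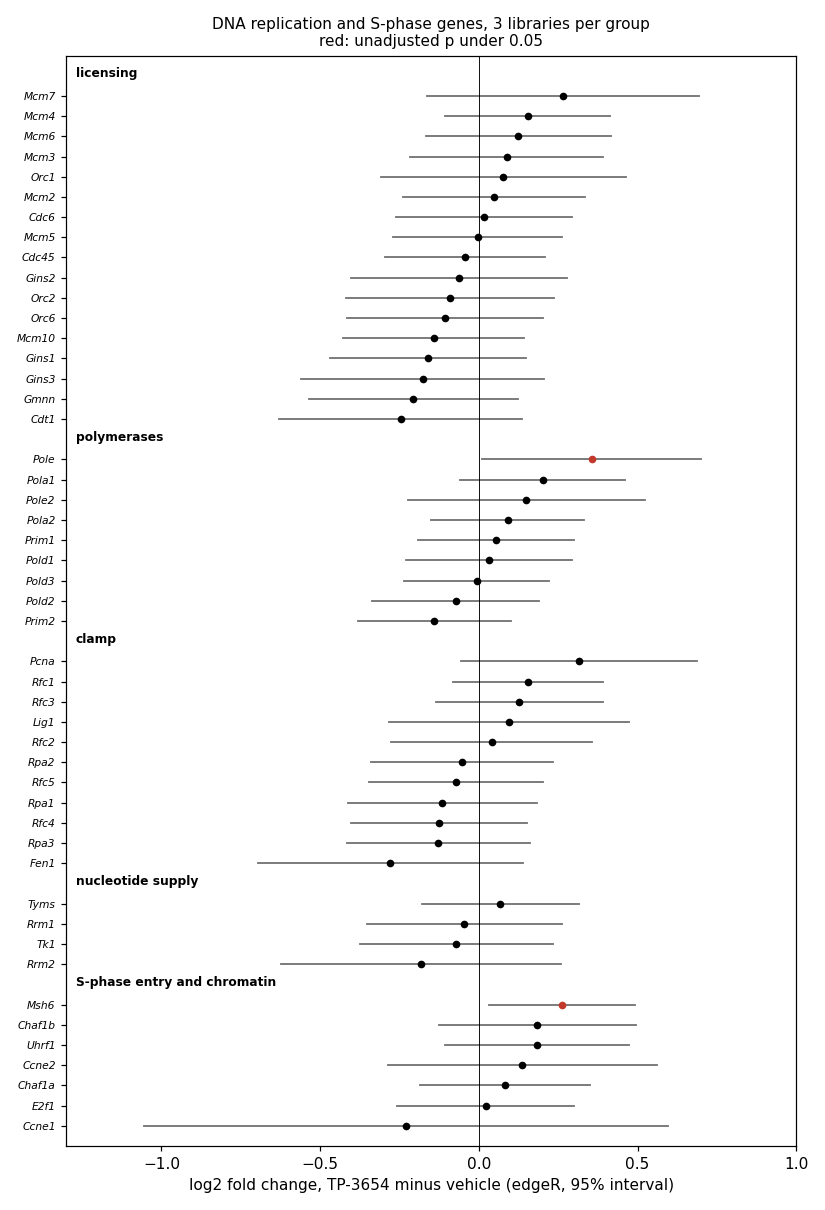
Log2 fold change of TP-3654 over vehicle for each of the 48 genes by role, with bars for the 95% interval from edgeR, a line at 0, and red points for an unadjusted p under 0.05 (Pole and Msh6). All point values lie between -0.28 and 0.36, and the intervals of 46 genes cross 0.

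Among the 17 licensing genes 7 had a log2 fold change above 0 and 10 below, with a median of -0.04, and 0 had an unadjusted p under 0.05. The helicase subunit Mcm2 was at 522, 480 and 448 CPM in the TP-3654 libraries and 413, 518 and 474 CPM in the vehicle libraries (log2 fold change 0.05, SE 0.13). Mcm3 was at 633, 589 and 619 CPM with TP-3654 and 481, 619 and 633 CPM with vehicle (0.09, SE 0.14). Vehicle replicate 1 was the low one for both, and the other 5 libraries overlapped. Mcm4 was at 354, 325 and 325 CPM with TP-3654 and 287, 334 and 281 CPM with vehicle (0.15, SE 0.11). Mcm5 was at 559, 504 and 509 CPM with TP-3654 and 475, 543 and 559 CPM with vehicle (-0.00, SE 0.12). For Mcm5 the groups lay on top of each other, and a log2 fold change below -0.27 or above 0.26 is outside its 95% interval. Mcm6, the most counted of the 48 genes, was at 854, 806 and 901 CPM with TP-3654 and 678, 835 and 836 CPM with vehicle (0.12, SE 0.13). Mcm7 was at 466, 427 and 667 CPM with TP-3654 and 358, 459 and 482 CPM with vehicle (0.26, SE 0.19, edgeR adjusted p = 0.481). Only TP-3654 replicate 3 exceeded the vehicle libraries in Mcm7, and without it the log2 fold change was 0.03.

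The loading factor Cdt1 was at 208, 189 and 131 CPM in the TP-3654 libraries and 187, 221 and 220 CPM in the vehicle libraries (log2 fold change -0.25, SE 0.17, edgeR adjusted p = 0.466). TP-3654 replicate 3 was again the one outside the others, this time below, and leaving it out gave -0.08. Geminin (Gmnn), which binds and inhibits Cdt1, was at 72.6, 62.4 and 64.9 CPM with TP-3654 and 65.2, 72.5 and 93.0 CPM with vehicle (-0.21, SE 0.15, edgeR adjusted p = 0.475). Its difference rested on vehicle replicate 3, without which it was -0.05. The remaining 9 licensing genes had log2 fold changes from -0.18 to 0.08. They were the origin recognition subunits Orc1 (0.08), Orc2 (-0.09) and Orc6 (-0.11), the loader Cdc6 (0.02), the initiation factor Mcm10 (-0.14), and the helicase activators Cdc45 (-0.04), Gins1 (-0.16), Gins2 (-0.06) and Gins3 (-0.18).

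Among the 9 polymerase genes 6 had a log2 fold change above 0 and 3 below, with a median of 0.05. Pole, the catalytic subunit of the leading-strand polymerase epsilon (chromosome 5, 110286319 to 110337468, GRCm38.p6), had the largest log2 fold change of the 48 genes. It was at 180, 154 and 207 CPM in the TP-3654 libraries and 118, 164 and 141 CPM in the vehicle libraries. TP-3654 replicate 2 lay below vehicle replicate 2, so the groups overlapped. Its log2 fold change was 0.36 (SE 0.15, 95% interval 0.01 to 0.70) and its adjusted p was 0.28 in edgeR and 0.277 in DESeq2. Without TP-3654 replicate 3 or vehicle replicate 1 it was 0.24 in each case, with an unadjusted edgeR p of 0.131 and 0.16. Its partner Pole2 had a log2 fold change of 0.15, at 22.2, 19.6 and 27.2 CPM with TP-3654 and 21.0, 22.6 and 18.6 CPM with vehicle. Polymerase alpha and primase, which make the primers, had values of 0.20 (Pola1), 0.09 (Pola2), 0.05 (Prim1) and -0.14 (Prim2). Polymerase delta, which extends the lagging strand, had values of 0.03 (Pold1), -0.07 (Pold2) and -0.01 (Pold3).

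Among the 11 clamp and lagging-strand genes 5 had a log2 fold change above 0 and 6 below, with a median of -0.05. Pcna (chromosome 2, 132249286 to 132253180) was at 363, 329 and 505 CPM in the TP-3654 libraries and 306, 348 and 307 CPM in the vehicle libraries (0.32, SE 0.17, edgeR adjusted p = 0.352). TP-3654 replicate 3 stood above all other libraries, and leaving it out gave 0.10. Fen1, the flap nuclease that PCNA recruits (chromosome 19, 10199132 to 10204393), was at 271, 245 and 160 CPM with TP-3654 and 250, 283 and 288 CPM with vehicle (-0.28, SE 0.18, edgeR adjusted p = 0.449). Here TP-3654 replicate 3 stood below all other libraries, and without it the value was -0.09. The clamp loader subunits had values of 0.16 (Rfc1), 0.04 (Rfc2), 0.13 (Rfc3), -0.13 (Rfc4) and -0.07 (Rfc5). The single-strand binding subunits had values of -0.12 (Rpa1), -0.05 (Rpa2) and -0.13 (Rpa3), and the ligase Lig1 one of 0.10.

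Of the 4 nucleotide supply genes 1 had a log2 fold change above 0 and 3 below, with a median of -0.06. Rrm2, the small subunit of ribonucleotide reductase that accumulates in S phase, was at 253, 198 and 143 CPM in the TP-3654 libraries and 236, 239 and 199 CPM in the vehicle libraries (-0.18, SE 0.19, edgeR adjusted p = 0.628). The TP-3654 libraries held both the highest and the lowest value, and the difference was -0.01 when TP-3654 replicate 3 was left out and -0.40 when replicate 1 was. Its partner Rrm1 had a value of -0.05, thymidylate synthase (Tyms) one of 0.07 and thymidine kinase (Tk1) one of -0.07.

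Among the 7 genes of S-phase entry and chromatin 6 had a log2 fold change above 0 and 1 below, with a median of 0.14. Msh6, a mismatch repair protein that corrects replication errors (chromosome 17, 87975050 to 87990892), was the 1 gene whose groups did not overlap. It was at 252, 237 and 248 CPM in the TP-3654 libraries and 194, 214 and 208 CPM in the vehicle libraries. Its log2 fold change was 0.26 (SE 0.10, 95% interval 0.03 to 0.49), with an adjusted p of 0.252 in edgeR and 0.228 in DESeq2. The value stayed between 0.22 and 0.29 without any 1 library, although its unadjusted p then reached up to 0.1. E2f1, the E2F factor of the list, was at 97.1, 88.8 and 88.5 CPM with TP-3654 and 78.1, 89.5 and 103 CPM with vehicle (0.02, SE 0.12). The groups of E2f1 overlapped throughout. Ccne1, a cyclin E, was at 45.2, 33.5 and 17.9 CPM with TP-3654 and 47.4, 36.7 and 29.1 CPM with vehicle (-0.23, SE 0.35). Its SE was the largest of the 48 genes, and with 1 library left out its value ran from -0.55 (TP-3654 replicate 1) to 0.05 (TP-3654 replicate 3). Ccne2, the other cyclin E, was at 31.5, 30.7 and 29.0 CPM with TP-3654 and 28.5, 34.3 and 20.2 CPM with vehicle (0.14, SE 0.19), and its value ran from -0.05 without vehicle replicate 3 to 0.31 without vehicle replicate 2. The chromatin assembly subunits Chaf1a and Chaf1b had values of 0.08 and 0.18, and Uhrf1, which couples DNA methylation to replication, one of 0.18.

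**Figure D3:**
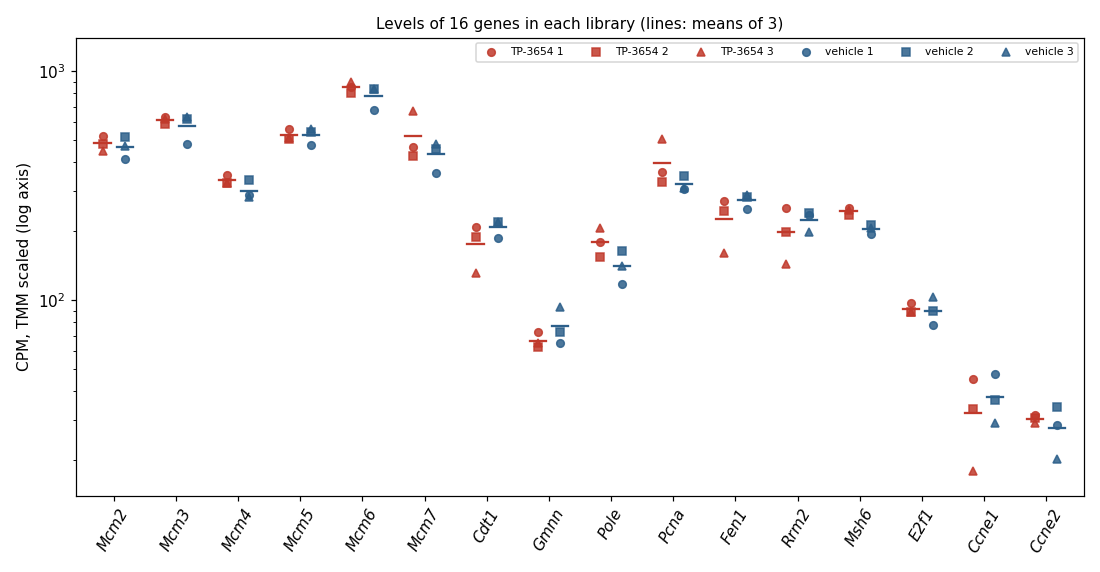
TMM-scaled CPM on a log axis of the 16 genes given in every library, with a circle, square and triangle for replicates 1, 2 and 3, a line for each group's mean, and TP-3654 left of vehicle. The TP-3654 triangle lies apart in Mcm7 (667) and Pcna (505), above, and in Cdt1 (131), Fen1 (160), Rrm2 (143) and Ccne1 (17.9), below.

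Within the TP-3654 group, replicate 3 stood apart in 7 of the 48 genes by over 0.5 log2 units from the mean of the other 2 libraries. Mcm7 (0.58) and Pcna (0.55) were above, and Cdt1 (-0.60), Gins3 (-0.59), Fen1 (-0.69), Rrm2 (-0.65) and Ccne1 (-1.13) were below. Replicate 1 passed that limit in 2 genes (Rrm2 at 0.57 and Ccne1 at 0.81) and replicate 2 in 0. Among vehicle libraries, replicate 1 passed it in 1 gene (Ccne1 at 0.53), replicate 2 in 0 and replicate 3 in 2 (Ccne1 at -0.53 and Ccne2 at -0.64). The share of all genes beyond this limit was not computed, so these counts do not show a trait of the replication genes. Over all genes, the counts of TP-3654 replicate 3 also differed most from those of its group. The chi-square per degree of freedom was 97.0 against replicate 1 and 112 against replicate 2, where replicates 1 and 2 gave 16.6. Pairs of vehicle libraries gave 22.8, 52.7 and 34.9. Of 13 erythroid genes in the count table, 9 were at their lowest of the 6 libraries in TP-3654 replicate 3, and 4 (Tfrc, Hba-a1, Hbb-bt and Alas2) were not. Hba-a1, an alpha globin, was at 421, 118 and 331 CPM in the TP-3654 libraries and 248, 94.1 and 108 CPM in the vehicle libraries. The erythroid factor Klf1 had 1263, 1195 and 115 counts in the TP-3654 libraries and 2478, 1468 and 1188 counts in the vehicle libraries. In the vehicle group, replicate 1 was the lowest library for 36 of the 48 genes, and in the TP-3654 group replicate 1 was the highest for 33. Vehicle replicate 1 also held 990 counts of the neutrophil gene S100a8, against 10 in each of the other vehicle libraries, and the TP-3654 libraries held 10, 238 and 22. The part of erythroid or neutrophil RNA in the values of the replication genes was not tested.

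Ratios between partner genes set TP-3654 replicate 3 off from the other 5 libraries in some pairs. Those pairs hold genes already listed as apart in it (Mcm7, Pcna, Fen1 and Ccne1), so they are no separate evidence. The ratio of Mcm7 to Mcm3 CPM, 2 subunits of one helicase, was 0.735, 0.725 and 1.08 in the TP-3654 libraries and 0.744, 0.741 and 0.762 in the vehicle libraries. The ratio of Pcna to Fen1 was 1.34, 1.34 and 3.16 with TP-3654 and 1.22, 1.23 and 1.07 with vehicle. TP-3654 replicate 3 was the highest of all libraries in both ratios, and the other 5 lay between 0.725 and 0.762 in the first and between 1.07 and 1.34 in the second. The ratio of Cdt1 to its inhibitor Gmnn was 2.87, 3.04 and 2.03 with TP-3654 and 2.87, 3.04 and 2.37 with vehicle. The ratio of Rrm2 to Rrm1 was 0.413, 0.396 and 0.303 with TP-3654 and 0.468, 0.405 and 0.368 with vehicle. In both of these replicate 3 was the lowest library of each group. The ratio of Pole to the polymerase delta subunit Pold1 was 0.804, 0.686 and 0.895 with TP-3654 and 0.601, 0.746 and 0.568 with vehicle, and the groups overlapped. The ratio of Ccne2 to Ccne1 was 0.697, 0.917 and 1.62 with TP-3654 and 0.601, 0.933 and 0.693 with vehicle.

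**Figure D4:**
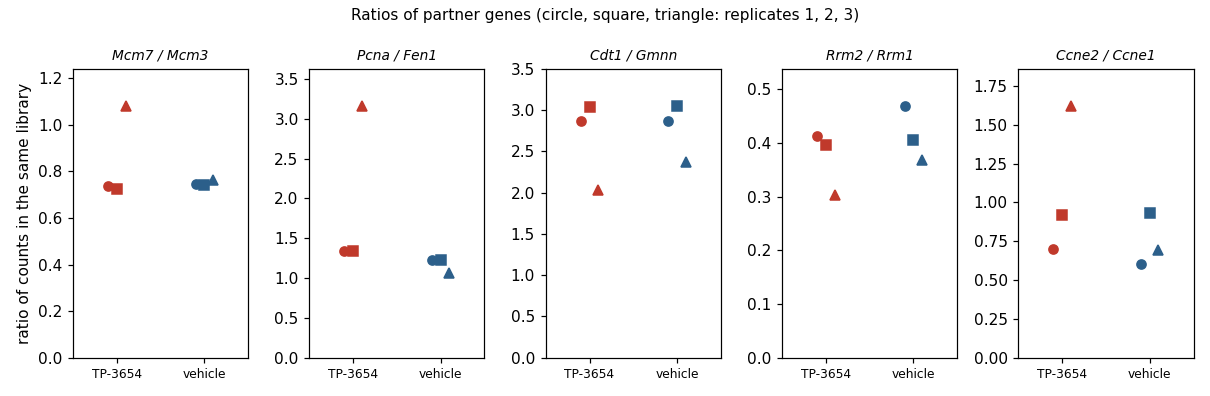
Ratio of the counts of 2 partner genes in the same library, 1 panel per pair on a linear axis from 0, TP-3654 left of vehicle, with a circle, square and triangle for replicates 1, 2 and 3. TP-3654 replicate 3 lies apart for Mcm7 over Mcm3 (1.08), Pcna over Fen1 (3.16) and Ccne2 over Ccne1 (1.62).

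Some of these genes share sequence with other loci, and how such reads were counted is not given in the sources used here. In 31-base words of GENCODE transcripts, Fen1 shared 79.6% with other genes and had 84.2% of its exon bases in exons of Gm10143 and Tmem258 on the other strand. Mcm7 shared 37.2% with its greatest overlap in Gm5487, and Pcna 38% with its greatest overlap in the pseudogene Pcna-ps2. The values of Fen1, Mcm7 and Pcna are uncertain for that reason, and so are those of Gins2 (70.5%) and Chaf1a (46.9%, mostly with Ubxn6). Of the genes that stood apart in TP-3654 replicate 3, Cdt1 and Ccne1 shared 0%, Gins3 1.76% and Rrm2 15%. Over the 48 genes 18 shared at most 1% and 18 more than 10%. Pole shared 0.649% and Msh6 10.8%.

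Of 72 further genes of replication, 0 passed an adjusted p of 0.05 in edgeR and 1 in DESeq2 (1.39%, against 4.92% of all genes). At an unadjusted p under 0.05 in edgeR, 1 was higher and 5 were lower. These 6 are 8.33% of the list, against 17.1% of all genes, and the groups did not overlap for 4 higher and 4 lower genes, 11.1% of the list against 25.9% of all genes. Their median log2 fold change was 0.02. Rnaseh2c, a subunit of the nuclease that removes ribonucleotides from DNA, was at 45.5, 53.3 and 29.0 CPM in the TP-3654 libraries and 63.9, 62.5 and 75.5 CPM in the vehicle libraries (-0.66, SE 0.21, edgeR adjusted p = 0.186, DESeq2 adjusted p = 0.0422). Pclaf, a PCNA-binding factor, was at 157, 140 and 131 CPM with TP-3654 and 187, 200 and 162 CPM with vehicle (-0.36, SE 0.12, edgeR adjusted p = 0.203). In both genes the groups did not overlap. Dbf4, the activator of the kinase that fires origins, had a value of -0.40, the small polymerase delta subunit Pold4 one of -0.50, the histone chaperone Asf1b one of -0.43 and the p53-inducible reductase subunit Rrm2b one of 0.47, with edgeR adjusted p-values from 0.213 to 0.273. With unadjusted p-values above 0.05 came Mcm9 (0.21), Topbp1 (0.20), Ctps (0.24), Dut (-0.20), E2f8 (-0.29) and Ccna2 (-0.35).

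The genes of mitosis were set beside the replication genes in the same libraries. Their list was chosen with earlier results of these data known, so its shares and gap describe these libraries and are no test. Of 50 mitosis genes 0 passed an adjusted p of 0.05 in edgeR and 7 in DESeq2, while 25 were lower and 0 higher at an unadjusted p under 0.05 in edgeR. The shares lower at that p were 50% of the mitosis genes and 6.84% of all genes, and DESeq2 called 14% of the mitosis genes and 4.92% of all genes. Their median log2 fold change was -0.31, where that of the 48 replication genes was 0.02. Per library, the mean log2 deviation of the replication genes from their average was 0.11, -0.06 and -0.03 with TP-3654 and -0.11, 0.07 and 0.03 with vehicle, and the groups overlapped. For mitosis genes it was 0.04, -0.21 and -0.38 with TP-3654 and 0.24, 0.22 and 0.09 with vehicle, and the groups did not overlap. The gap of replication over mitosis genes was 0.06, 0.15 and 0.35 log2 units with TP-3654 and -0.35, -0.15 and -0.06 with vehicle. All 3 TP-3654 libraries lay above all 3 vehicle libraries in this gap, which was not tested. The kinesin Kif2c, for one, was at 60.9, 49.7 and 48.7 CPM with TP-3654 and 74.6, 76.5 and 77.0 CPM with vehicle (-0.52, SE 0.12, edgeR adjusted p = 0.0971), and Cdc25c and Cdc20 had values of -0.67 and -0.56.

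**Figure D5:**
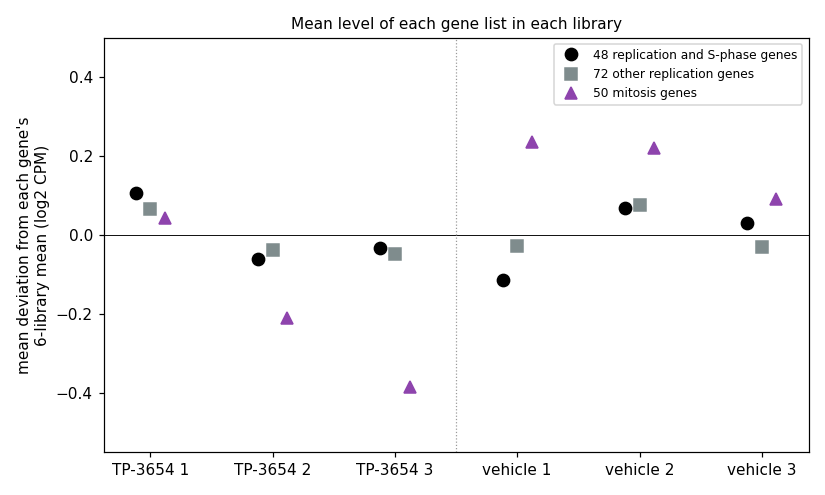
Mean deviation (log2 CPM) of the 48 replication genes, the 72 further replication genes and the 50 mitosis genes from each gene's mean over 6 libraries, 1 point per list and library, TP-3654 left of vehicle. The replication lists overlap between groups, while the mitosis genes lie at -0.38 to 0.04 with TP-3654 and 0.09 to 0.24 with vehicle.

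The authors' deposited table gave values of its own for all 48 genes. No gene of the 48 had a p under 0.05, adjusted or not, in the authors' deposited table, and its smallest adjusted p was 0.288, for Msh6 (log2 fold change 0.20, SE 0.10). The median log2 fold change of the 48 in the authors' deposited table was -0.07, and 37 had the same sign there as in edgeR. Pcna stood at 0.01 (SE 0.12), Mcm7 at -0.05 (SE 0.14) and Pole at 0.15 in the authors' deposited table, where the deposited counts gave 0.32, 0.26 and 0.36 in edgeR. The authors' deposited table was not recovered from the deposited counts: the mean normalised count per gene computed from the counts was a median of 1.14 times that of the table, and 0.737 to 2.20 times for the 48 genes.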

How the data were processed

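The authors deposited raw counts of reads per Entrez gene for 6 libraries, made from poly(A) RNA of sorted LSK cells per the labels' protocols. Their deposited comparison table holds, per the file headers, a mean normalised signal, a log2 fold change with its SE, a Wald score, and a p-value with its adjusted value per gene. The submitters' processing notes name HISAT2 2.1.0, SAMtools 1.9.0 and DESeq2, with builds mm10 and GRCm38. Not given in the sources used here were the counter, its annotation and its strand option, so overlapping and antisense genes cannot be told apart.

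Symbols came from the deposited table or RefSeq (GRCm38.p6) for 15839 of 15845 genes. TP-3654 was compared with vehicle in edgeR 4.0.16 (R 4.3.3) with TMM factors, filterByExpr (13149 genes kept, 2696 removed), robust quasi-likelihood fit and F test, and Benjamini-Hochberg adjustment over all genes tested. The SE was the log2 fold change over the root of F, and intervals are 95%. Alternatives were DESeq2 1.42.0, limma-voom (limma 3.58.1), other scalings and filters, no robust option, a replicate block and each library left out. The code was tested on simulated counts. A count of 3 equals 0.119 to 0.146 CPM. Levels per kb used the union of exons of GENCODE coding transcripts (vM21). The 48 genes, their 5 roles and every list were chosen with earlier results of these data known. Values in every library are given for 16 genes fixed by a written rule (Mcm2 to Mcm7, Cdt1, Gmnn, Pole, Pcna, Fen1, Rrm2, Msh6, E2f1, Ccne1 and Ccne2), and that rule also named the sort markers and up to 3 genes of lowest p from each further list. Per-library values of Pole2, Rrm1, Rnaseh2c, Pclaf, Kif2c, Pold1, Klf1, Hba-a1 and S100a8, alone or in a ratio, were added after they were seen.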

Additional observations from a re-analysis of the deposited data

How the results depend on the processing

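Under all 15 alternatives 0 of the 48 replication genes passed an adjusted p of 0.05, and their median log2 fold change lay between -0.04 and 0.04. The number with an unadjusted p under 0.05, 2 in edgeR, was 1 (Msh6) with DESeq2, with RLE size factors and without the robust option. With 1 library left out it was 0 to 2. Over all genes the share at that p was 15.6% with DESeq2, 17.5% with RLE and 17.1% without the robust option. With 1 library left out that share was 12.5% to 17.1%. Without TP-3654 replicate 1 the genes of the 48 at that p were Fen1 and Rrm2, both lower. Without TP-3654 replicate 2 they were Pole and Pcna, and without vehicle replicate 1 there were 0. The number of the 48 whose groups did not overlap, 1 in edgeR, was 2 with DESeq2, RLE, upper quartile factors and no filter. It was 4 with library totals only. Over all genes the share that did not overlap was 23.7% to 26.1% under these settings. With 1 library left out the number of the 48 was 2 to 11, where fewer samples overlap by construction (31.8% to 38.5% of all genes). The cause of the other changes was not tested. Of 240 values of the 16 genes given by library, 235 moved by less than 1 SE. The 5 others were Mcm7, Pcna and Fen1 without TP-3654 replicate 3, Rrm2 without TP-3654 replicate 1 (-0.40) and Gmnn without vehicle replicate 3.

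The deviations of same-numbered libraries correlated at 0.02, -0.04 and 0.02, which gave no sign of pairing by replicate number. Deviations within 3 libraries per group cannot show that the samples were unpaired. With the replicate block, 0 of the 48 genes had an unadjusted p under 0.05, against 14.6% of all genes. Over all genes 3 passed an adjusted p of 0.05 with the block, where the fit without it called 0. With 3 libraries per group, the half-width of the 95% interval had a median of 0.29 log2 units over the 48 genes and was widest for Ccne1. An estimate smaller than its gene's own half-width has an interval that includes 0. A larger estimate need not pass an adjusted p, since Pole, at 0.36, had an edgeR adjusted p of 0.28.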
